A study of Homo sapiens with 18 samples.

Results

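The genes described here are 10 interferon-inducible genes of antiviral RNA recognition: IFIT1, IFIT2, IFIT3 and IFIT5, OAS1, OAS2, OAS3 and OASL, and the cytosolic RNA sensors DDX58 and IFIH1. They were chosen by symbol as members of known gene families, and all 10 were present among the 13141 genes of the expression table. The cells were 786-O, a human clear cell renal carcinoma line without functional VHL, the tumor suppressor that marks hypoxia-inducible factors for destruction. Illumina HumanHT-12 V4 arrays were run on 18 samples in 6 groups of 3: VHL-/- cells and VHL+/+ cells, each with a scramble shRNA (SCR), PBRM1 shRNA or KDM5C shRNA. PBRM1 is a subunit of the PBAF chromatin remodeling complex, and KDM5C is a histone H3 lysine 4 demethylase. The VHL+/+ cells are 786-O cells with VHL put back, and on these arrays each target gene was addressed with 1 stably expressed shRNA. Every group shared the 786-O background and a stable shRNA, and the labels state that no sample was treated. The labels carry a tag 'ChIP' with values 1 and 2, which was read here as the array chip. On that reading, replicates 1 and 2 of each group were on chip 1 and replicate 3 was on chip 2.

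DDX58 (RIG-I) and IFIH1 (MDA5) are helicases that bind viral double-stranded RNA in the cytosol and signal through the adaptor MAVS to the interferon genes. Secreted type I interferon then acts on its receptor and activates ISGF3, a transcription factor complex that holds STAT2 and IRF9 and binds the interferon-stimulated response element in the promoters of its target genes. IFIT1 binds viral RNA that lacks the cap methylation of host mRNA, and OAS enzymes make 2′-5′-linked oligoadenylates, a signal that leads to RNA decay. The sensors are themselves targets of the pathway that they start, as are most IFIT and OAS genes.

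In the RefSeq annotation of GRCh38.p14, the 4 IFIT genes lie in a cluster on chromosome 10, from 89302046 to 89420997. OAS1, OAS3 and OAS2 lie side by side on chromosome 12, from 112906962 to 113011723, and OASL lies apart from them on the same chromosome, at chr12:121017761-121039246. DDX58, now named RIGI, is at chr9:32455302-32526196 and IFIH1 at chr2:162267074-162318684. RefSeq promoter sequences, 250 bases before to 50 bases after a transcription start, were matched for 7 of the 10 genes, with 2 starts for IFIT3. IFIT2, OAS2 and OASL are named only. The 8 promoters were searched on both strands for the core letters of the interferon-stimulated response element, GAAANNGAAA, and for the tighter form GAAANGAAA, where N is any base and matches may overlap. On the opposite strand the letters read TTTCNNTTTC and TTTCNTTTC. All 8 promoters held at least 1 match, against 6.4% of the 35116 promoters of the same length, and a match is a description of the letters only. The windows below run from 12 bases before the first match to 12 bases after the last, ending no later than the transcription start or the end of the match that spans it, with the matches in capitals. They are shown for the gene that fell most in VHL-/- cells (IFIT1), a family member with a small change (IFIT5), an OAS gene and both sensors, at chr10:89392495-89392541 (+ strand), chr10:89414511-89414573 (+), chr12:112906933-112906961 (+), chr9:32526379-32526411 (-) and chr2:162318685-162318855 (-), in that order.
IFIT1: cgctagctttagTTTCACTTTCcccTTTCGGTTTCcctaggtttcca
IFIT5: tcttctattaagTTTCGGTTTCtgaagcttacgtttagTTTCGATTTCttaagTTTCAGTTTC
OAS1: ctcccttctgagGAAACGAAAccaacagc
DDX58: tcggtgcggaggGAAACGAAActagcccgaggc
IFIH1: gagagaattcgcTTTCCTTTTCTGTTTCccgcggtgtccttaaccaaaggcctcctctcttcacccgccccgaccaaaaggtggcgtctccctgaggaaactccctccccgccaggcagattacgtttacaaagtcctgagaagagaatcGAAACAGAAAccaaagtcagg
IFIT5 held 3 matches and IFIT1 held 2, OAS1 and DDX58 held 1 each, and IFIH1 held 3, of which a pair overlap.

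The deposited values are log2 signals, which the authors background-corrected, quantile-normalized and reduced to 1 value per gene. A single limma model of the 18 arrays held the 6 groups and the chip, with Benjamini-Hochberg adjustment over all 13141 genes of a comparison. A gene was called where the adjusted p was under 0.05 and the fold change at least 1.5. PBRM1 mRNA did not pass the test with PBRM1 shRNA in VHL-/- cells (log2 fold change -0.06, limma adjusted p = 0.864) or VHL+/+ cells (-0.15, adjusted p = 0.639). Its signal was dim, with group means from 7.21 to 7.35 against a median of 7.65 over all values, so a fall could be missed. VHL mRNA did not differ between SCR groups by the test (0.08, limma adjusted p = 0.766), and KDM5C had 0 rows. In these array data the groups therefore rest on their labels, while the paper reports protein blots of 786-O cells with PBRM1 or KDM5C knocked down. Of 12 renal epithelial markers 11 were in the table and 9 were above the median signal, against 1 of the 4 leukocyte markers in the table. The chip differed for 3130 genes at adjusted p under 0.05, among them only OAS3 of the 10 genes (-0.42 on chip 2, limma adjusted p = 0.00502). In RNA from whole cultures, less RNA per cell and fewer expressing cells cannot be told apart. The probe sequences were not used here, and cross-hybridization between related IFIT or OAS transcripts was not tested.

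By mean signal over all arrays, OAS2, IFIT5, OAS1, OASL and DDX58 were the dimmer genes, at percentiles 34.3, 35.0, 38.5, 38.9 and 41.2 of all genes. The others were at percentiles from 60.8 (OAS3) to 87.7 (IFIT1). Whether the background compressed the fold changes of the dimmer genes was not tested. All 10 genes had their highest group mean in VHL-/- SCR cells, and 8 of them their lowest in VHL+/+ cells with PBRM1 shRNA. With each gene centred on its own mean, the mean of the 10 genes was 0.74 ± 0.26 (SD, n = 3) in VHL-/- SCR cells on the log2 scale after the chip term was removed. It was -0.14 ± 0.26 with PBRM1 shRNA and -0.07 ± 0.13 with KDM5C shRNA in VHL-/- cells. In VHL+/+ cells it was 0.08 ± 0.10 with SCR, -0.32 ± 0.11 with PBRM1 shRNA and -0.28 ± 0.10 with KDM5C shRNA. The VHL-/- SCR arrays, from 0.45 to 0.90, were above all the 15 other arrays, the highest of which was 0.19.

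**Figure D1:**
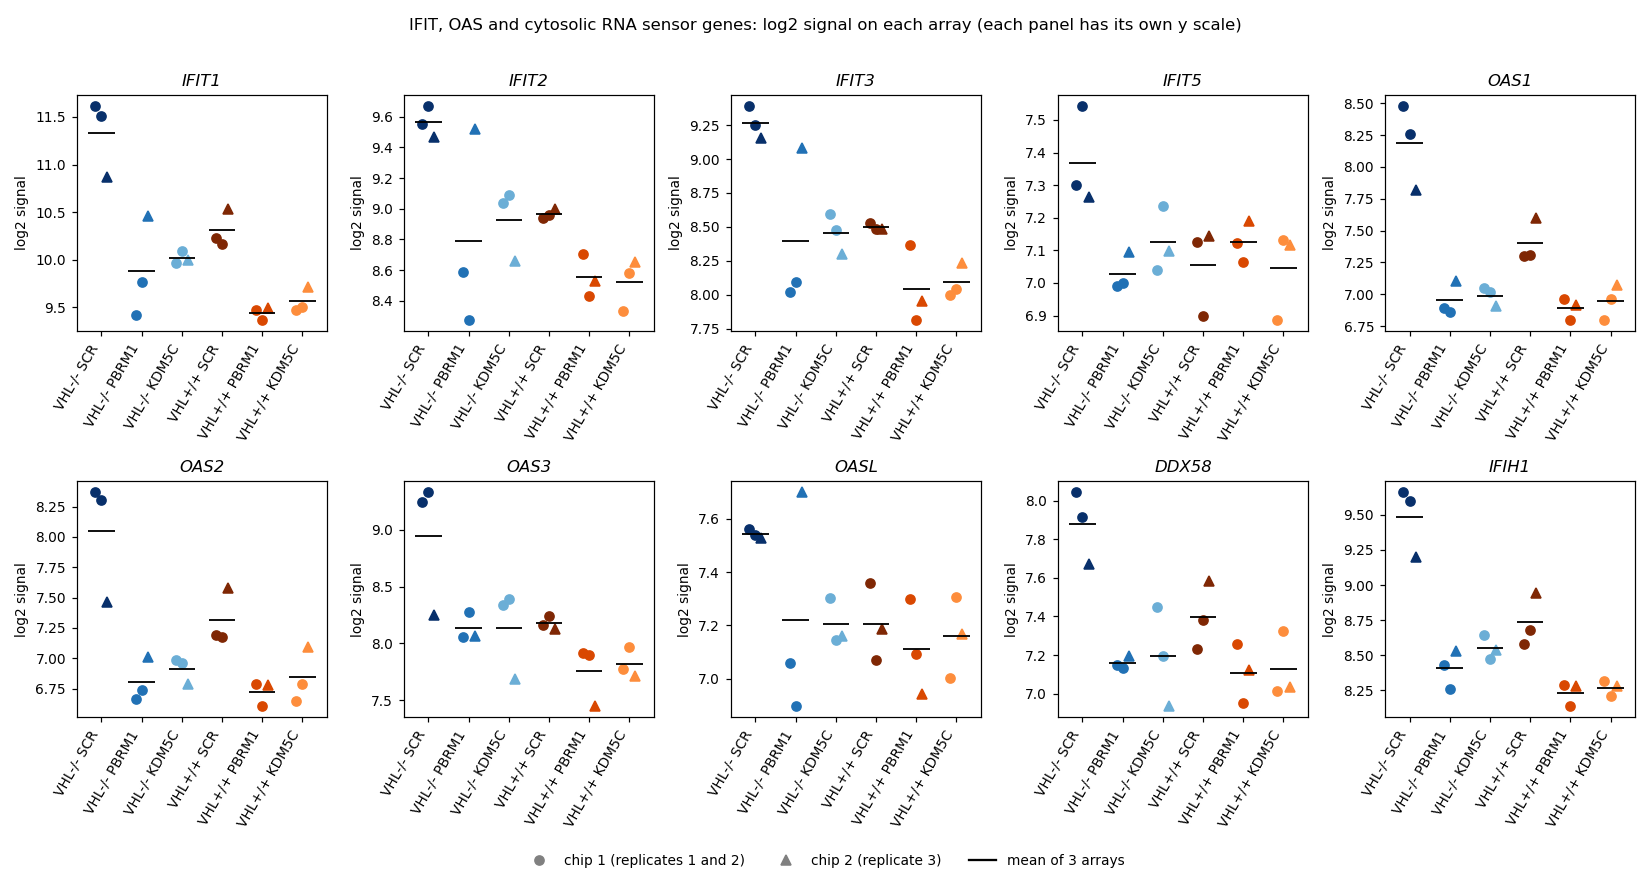
Log2 signal of each of the 10 genes (1 panel per gene, each with its own y scale) on the 18 arrays, by group; circles are chip 1 arrays, triangles chip 2 arrays and lines the mean of 3 arrays. VHL-/- SCR had the highest mean in every panel, and replicate 3 of VHL-/- PBRM1 shRNA stood above its group for IFIT2 (9.52), IFIT3 (9.08) and OASL (7.70).

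In VHL-/- cells, PBRM1 shRNA went with lower signal of the IFIT genes, the OAS genes and both sensors. Of the 10 genes 8 were called lower, where 0.89% of all genes were, and none was called higher. The median log2 fold change of the 10 genes was -0.84, against -0.0006 over all genes. In 7 of the 10 genes every PBRM1 shRNA array was below every SCR array, as in 10.3% of all genes.

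IFIT1, which binds RNA with an unmethylated cap and is among the most strongly interferon-induced genes, fell most. Its log2 signal was 11.62, 11.51 and 10.87 on the VHL-/- SCR arrays and 9.42, 9.77 and 10.46 on the PBRM1 shRNA arrays. The groups did not overlap, though replicate 3, on chip 2, was the lowest SCR array and the highest shRNA array. The log2 fold change was -1.45 (SE, the standard error, 0.20, limma adjusted p = 0.000468), a 2.73-fold lower signal. IFIT3, a partner that stabilizes IFIT1 on RNA, was at 9.39, 9.25 and 9.16 with SCR and at 8.02, 8.09 and 9.08 with PBRM1 shRNA. Replicate 3 of the shRNA group lay just under the SCR arrays and the other replicates far below, with a log2 fold change of -0.87 (SE 0.20, limma adjusted p = 0.0174). IFIT3 was not called without VHL-/- SCR replicate 1 or 2 or PBRM1 shRNA replicate 1 or 2, with a highest adjusted p of 0.1 and values from -1.23 to -0.69 over all arrays left out.

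IFIT2, which binds AU-rich RNA and joins IFIT1 and IFIT3 in a complex, was at 9.55, 9.67 and 9.47 with SCR and at 8.59, 8.27 and 9.52 with PBRM1 shRNA. Replicate 3 of the shRNA group overlapped the SCR arrays. The call at a log2 fold change of -0.77 (SE 0.21, limma adjusted p = 0.0407) held in 7 of the 18 fits that left out 1 array, with adjusted p up to 0.219 (-0.52, without PBRM1 shRNA replicate 2). On chip 1 the difference was -1.18 (limma adjusted p = 0.000263 over the 2 arrays a group), and between the single arrays of chip 2 it was 0.05. IFIT5, a family member that works as a single protein, was at 7.30, 7.54 and 7.26 with SCR and between 6.99 and 7.09 with shRNA. These groups did not overlap, and the log2 fold change of -0.34 (SE 0.09, limma adjusted p = 0.044) was under the fold threshold.

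OAS1, an oligoadenylate synthetase, was at 8.48, 8.26 and 7.82 with SCR and at 6.89, 6.86 and 7.10 with PBRM1 shRNA. OAS2, a second synthetase, was at 8.37, 8.31 and 7.47 with SCR and at 6.66, 6.73 and 7.01 with PBRM1 shRNA. In both genes the groups were apart, and replicate 3 was the lowest of the SCR arrays and the highest of the shRNA arrays. The log2 fold changes were -1.23 for OAS1 (SE 0.14, limma adjusted p = 5.11e-05) and -1.25 for OAS2 (SE 0.19, adjusted p = 0.000983). OAS3, the synthetase with the highest affinity for long double-stranded RNA, was at 9.25, 9.33 and 8.25 with SCR and at 8.05, 8.28 and 8.07 with PBRM1 shRNA. Here SCR replicate 3 lay below shRNA replicate 2, on another chip, and the log2 fold change with the chip term was -0.81 (SE 0.16, limma adjusted p = 0.00591). OASL, which lacks synthetase activity and binds DDX58, was at 7.56, 7.54 and 7.53 with SCR and at 7.06, 6.90 and 7.70 with PBRM1 shRNA. Replicate 3 was the highest of all 18 arrays, the groups overlapped and the test was not passed (log2 fold change -0.32, limma adjusted p = 0.282). Without that array OASL was called (-0.59, adjusted p = 0.00549).

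The sensor IFIH1, which recognizes long double-stranded RNA, was at 9.66, 9.60 and 9.20 with SCR and at 8.43, 8.26 and 8.53 with PBRM1 shRNA. DDX58, which recognizes RNA with a 5′-triphosphate, was at 8.05, 7.92 and 7.67 with SCR and at 7.15, 7.13 and 7.20 with PBRM1 shRNA. All shRNA arrays of both sensors were below all SCR arrays. The log2 fold changes were -1.08 for IFIH1 (SE 0.12, limma adjusted p = 4.05e-05) and -0.72 for DDX58 (SE 0.13, adjusted p = 0.00327). Across chips the size of the PBRM1 shRNA difference varied. The median of the 10 genes was -1.22 on chip 1 and -0.29 between the single arrays of chip 2, where VHL-/- SCR replicate 3 was low and VHL-/- PBRM1 shRNA replicate 3 was high for several of the genes.

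KDM5C shRNA was set against the same VHL-/- SCR arrays, so the values of both shRNAs share a control group. Of the 10 genes 7 were called lower and 0 higher, where 0.654% of all genes were called lower. The median log2 fold change was -0.81, with -0.86 on chip 1 and -0.71 on chip 2. In 9 of the 10 genes every KDM5C shRNA array was below every SCR array, as in 8.2% of all genes.

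The IFIT1 signal was 9.97, 10.10 and 10.00 with KDM5C shRNA, 3 arrays close together and all below SCR (log2 fold change -1.31, SE 0.20, limma adjusted p = 0.0012). OAS1 was at 7.05, 7.02 and 6.91 (log2 fold change -1.20, SE 0.14, limma adjusted p = 8.69e-05) and OAS2 at 6.99, 6.96 and 6.79 (-1.14, adjusted p = 0.00217). All these arrays were below the lowest SCR array of their gene. IFIH1 was at 8.64, 8.47 and 8.54 (log2 fold change -0.94, SE 0.12, limma adjusted p = 0.000166) and DDX58 at 7.45, 7.20 and 6.93 (-0.69, adjusted p = 0.00505). Both sensors were again without overlap, and without KDM5C shRNA replicate 3 DDX58 was under the fold threshold (log2 fold change -0.56, adjusted p = 0.0306).

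IFIT3, at 8.60, 8.48 and 8.30, had a log2 fold change of -0.81 (limma adjusted p = 0.0283), and OAS3, at 8.34, 8.39 and 7.69, also of -0.81 (adjusted p = 0.00638). IFIT3 was not called without SCR replicate 1 or 2 or KDM5C shRNA replicate 2 or 3 (adjusted p up to 0.131, values from -0.92 to -0.67). OAS3 was the gene in which the groups overlapped, with both replicate 3 arrays low. The genes not called were IFIT2, IFIT5 and OASL. IFIT2 was at 9.04, 9.09 and 8.66, below every SCR array, with a log2 fold change of -0.64 (SE 0.21, limma adjusted p = 0.102). For IFIT5 it was -0.25 (adjusted p = 0.167) and for OASL -0.34 (adjusted p = 0.264). IFIT2 was called when VHL-/- PBRM1 shRNA replicate 3 was left out (log2 fold change -0.64, adjusted p = 0.00396), an array of another group that enters through the shared estimate of the spread.

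The effects of the shRNAs were compared directly in VHL-/- cells. Of the 10 genes 0 were called, as were 0% of all genes, and at an unadjusted p under 0.05 the counts were 0 of 10 and 5.38% of all genes. The difference, PBRM1 shRNA minus KDM5C shRNA, ran from -0.14 (IFIH1) to 0.01 (OASL) on the log2 scale. The 95% confidence intervals leave room for differences of up to 0.58 in size (IFIT2, from -0.58 to 0.31), and for OAS1 the interval was from -0.33 to 0.25. The median difference was -0.23 on chip 1 and 0.32 on chip 2. In VHL+/+ cells the same comparison gave 0 of 10 and 0% of all genes, with 4.15% of all genes and 0 of 10 at an unadjusted p under 0.05. There the differences ran from -0.12 (IFIT1) to 0.08 (IFIT5), with an interval for IFIT1 from -0.56 to 0.31.

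**Figure D2:**
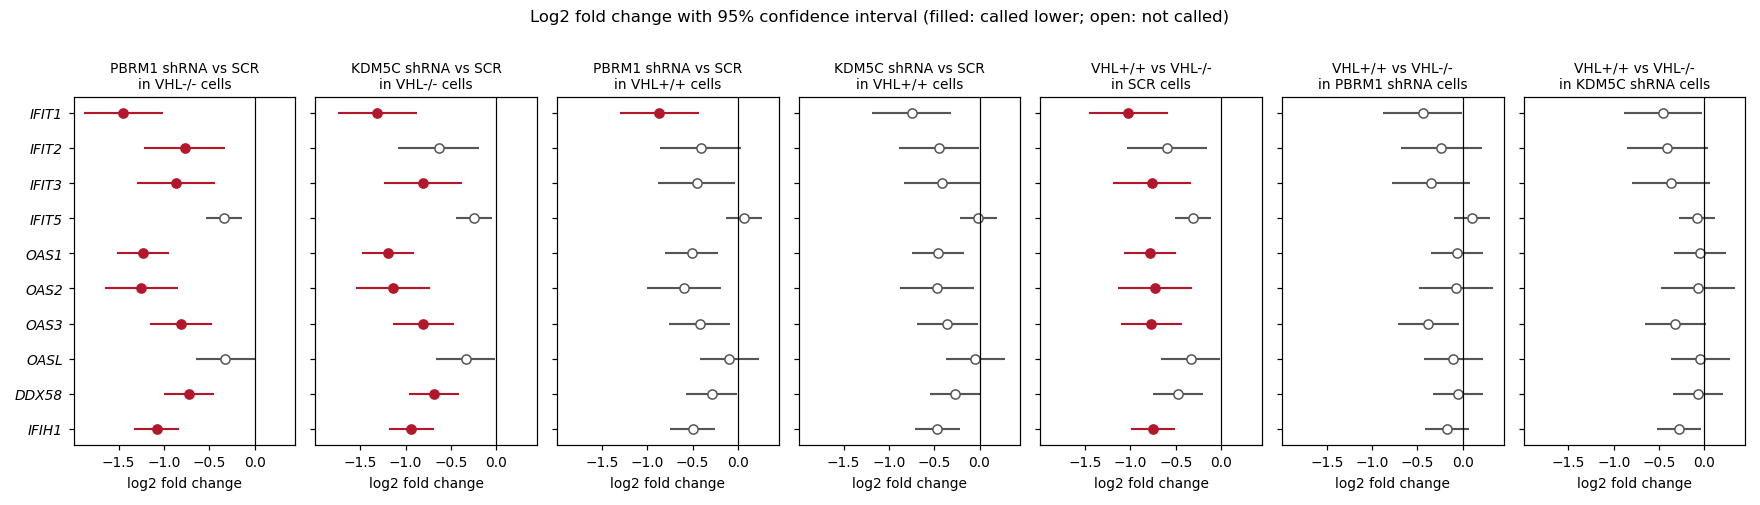
Log2 fold change of each gene (rows) in 7 comparisons (panels), first group over second; points are limma estimates, bars 95% confidence intervals, and filled red points genes called lower. Called genes number 8, 7, 1, 0, 6, 0 and 0 from left to right, and IFIT1 lies furthest left in all 7 panels.

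In VHL+/+ cells the median difference from SCR was nearer to 0 with either shRNA, and few of the 10 genes passed the test. With PBRM1 shRNA 1 of the 10 genes was called lower, where 0.304% of all genes were, and the median log2 fold change was -0.44. With KDM5C shRNA 0 of 10 were called, where 0.426% of all genes were called lower, and the median was -0.43. At an unadjusted p under 0.05 the count was 6 of 10 with KDM5C shRNA, against 18.4% of all genes in either direction, and limma with trend and robust moderation called 1. Both comparisons share the VHL+/+ SCR arrays. In each, 7 of the 10 genes had every shRNA array below every SCR array, as had 6.51% of all genes with PBRM1 shRNA and 8.86% with KDM5C shRNA. The genes that overlapped were IFIT5, OASL and DDX58 in both. Within chips the median was -0.40 and -0.60 for PBRM1 shRNA and -0.40 and -0.45 for KDM5C shRNA, on chips 1 and 2.

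IFIT1 was the gene called. It was at 10.23, 10.17 and 10.53 on the VHL+/+ SCR arrays, at 9.47, 9.36 and 9.49 with PBRM1 shRNA and at 9.47, 9.50 and 9.72 with KDM5C shRNA. All 6 shRNA arrays were below the 3 SCR arrays. The log2 fold change was -0.87 with PBRM1 shRNA (SE 0.20, limma adjusted p = 0.0313) and -0.75 with KDM5C shRNA (SE 0.20, adjusted p = 0.0511). The first call was lost when any of the 6 arrays of its own comparison was left out, with log2 fold changes from -0.92 to -0.79.

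IFIH1 passed the adjusted p with both shRNAs and stayed under the fold threshold. Its signal was 8.58, 8.68 and 8.94 with SCR, 8.29, 8.14 and 8.28 with PBRM1 shRNA and 8.31, 8.21 and 8.28 with KDM5C shRNA, with no overlap. The log2 fold changes were -0.50 (SE 0.12, limma adjusted p = 0.0286) and -0.47 (SE 0.12, adjusted p = 0.032). OAS1 was at 7.30, 7.31 and 7.60 with SCR, at 6.96, 6.80 and 6.91 with PBRM1 shRNA and at 6.80, 6.96 and 7.07 with KDM5C shRNA. Its groups were also apart, and the test was missed with either shRNA (log2 fold change -0.51, adjusted p = 0.0613, and -0.46, limma adjusted p = 0.0694). IFIT5 overlapped between the groups in these cells, with a log2 fold change of 0.07 (95% confidence interval from -0.13 to 0.27) with PBRM1 shRNA and of -0.01 (from -0.21 to 0.19) with KDM5C shRNA.

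Whether the shRNA effect differed between the VHL backgrounds was tested as an interaction. The effect was more negative in VHL-/- cells for 10 of 10 genes with either shRNA. Of all 13141 genes it was so for 6784 with PBRM1 shRNA and 6591 with KDM5C shRNA. The median differences of the 10 genes were -0.42 and -0.43. Both interactions share the SCR arrays, and the 10 genes vary together, so they are not 10 separate results. None of the 10 genes was called for PBRM1 shRNA (0% of all genes) or KDM5C shRNA (0% of all genes). The largest differences were those of OAS1, -0.72 with PBRM1 shRNA (95% confidence interval from -1.13 to -0.31, limma adjusted p = 0.912) and -0.74 with KDM5C shRNA (from -1.15 to -0.33, adjusted p = 0.354). OAS1, OAS2, IFIT5, OASL and DDX58 are the dimmer genes, and whether the background limited their change in VHL+/+ cells was not tested. For IFIH1 the differences were -0.58 and -0.47 (limma adjusted p = 0.471 for the second). At an unadjusted p under 0.05 there were 5 of the 10 genes with PBRM1 shRNA (4.21% of all genes), namely IFIT5, OAS1, OAS2, DDX58 and IFIH1. With KDM5C shRNA there were 4 (7.72% of all genes), namely OAS1, OAS2, DDX58 and IFIH1. The limma fit with trend and robust moderation gave 0 genes at adjusted p under 0.05 in both.

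Calls of the interaction appeared when VHL-/- SCR replicate 3 was left out. Without that array 3 genes were called with PBRM1 shRNA, OAS1 (-0.95, limma adjusted p = 0.0235), OAS2 (-1.01, adjusted p = 0.029) and IFIH1 (-0.76, adjusted p = 0.0442), and 2 with KDM5C shRNA, OAS1 (-0.96, adjusted p = 0.017) and OAS2 (-1.02, adjusted p = 0.0231). On chip 1 alone 3 genes were called with PBRM1 shRNA, IFIT1 (-1.19, limma adjusted p = 0.0163), OAS1 (-1.07, adjusted p = 0.0163) and OAS2 (-1.15, adjusted p = 0.0117). OAS1 and OAS2 are dimmer genes, at percentiles 38.5 and 34.3 of mean signal, and whether the background entered their calls was not tested. The median interaction of the 10 genes with PBRM1 shRNA was -0.84 on chip 1 and 0.38 on chip 2, and with KDM5C shRNA -0.56 and -0.19.

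**Figure D3:**
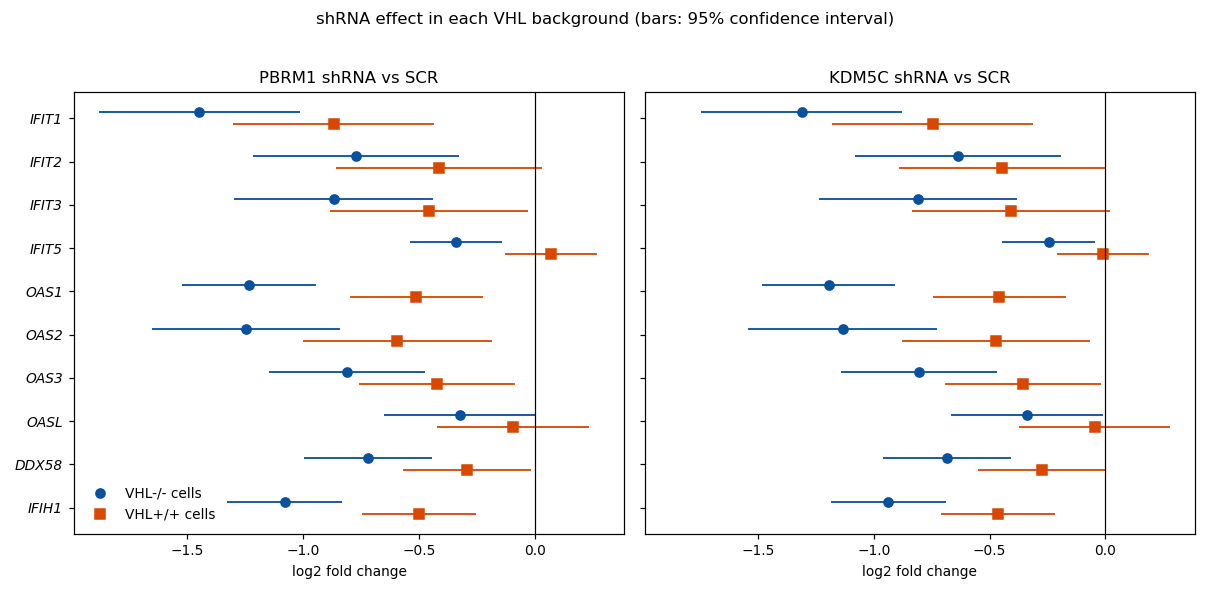
Log2 fold change of each gene with PBRM1 shRNA (left) and KDM5C shRNA (right) against SCR, in VHL-/- cells (blue circles) and VHL+/+ cells (orange squares), with 95% confidence intervals from limma. The blue point lies left of the orange one for all 10 genes in both panels, and most intervals overlap.

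The VHL+/+ background went with lower signal of these genes in SCR cells. Other differences between the VHL+/+ and VHL-/- cells cannot be told apart from VHL status. Of the 10 genes 6 were called lower in VHL+/+ than in VHL-/- SCR cells, where 0.685% of all genes were, and 0 higher. They were IFIT1 (log2 fold change -1.02, SE 0.20, limma adjusted p = 0.011), IFIT3 (-0.77, adjusted p = 0.0497), OAS1 (-0.78, adjusted p = 0.0045), OAS2 (-0.73, adjusted p = 0.0481), OAS3 (-0.77, adjusted p = 0.0137) and IFIH1 (-0.75, adjusted p = 0.00194). DDX58 had a log2 fold change of -0.48 (adjusted p = 0.0594), IFIT2 of -0.60 (adjusted p = 0.149), IFIT5 of -0.31 (adjusted p = 0.0866) and OASL of -0.34 (adjusted p = 0.302).

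The VHL+/+ SCR arrays were below all VHL-/- SCR arrays in 9 of the 10 genes, as in 8.46% of all genes, and the exception was OAS2. OAS2 was at 7.19, 7.17 and 7.58 in VHL+/+ SCR cells, so that replicate 3 was above the lowest VHL-/- SCR array, at 7.47. OAS1 and IFIH1 were called in all 18 fits that left out 1 array, IFIT1 in 15, OAS3 in 14, IFIT3 in 5 and OAS2 in 4. Leaving out VHL-/- SCR replicate 1 or 2, or VHL+/+ SCR replicate 1, lowered the count to 2, and leaving out VHL+/+ SCR replicate 2 lowered it to 3. The median log2 fold change was -0.74, with -0.91 on chip 1 and -0.24 between the arrays of chip 2, where OAS2 differed by 0.11. These VHL values use the same VHL-/- SCR arrays as the shRNA comparisons in those cells.

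With either shRNA present, the log2 fold changes between VHL+/+ and VHL-/- cells were nearer to 0, and the test of that change is the interaction given above. In PBRM1 shRNA cells 0 of the 10 genes were called lower, where 0.51% of all genes were, and in KDM5C shRNA cells 0, where 0.563% were. The median log2 fold changes were -0.14 and -0.18. IFIT1 had the most negative value in both, -0.44 (95% confidence interval from -0.88 to -0.01, limma adjusted p = 0.358) and -0.46 (from -0.89 to -0.02, adjusted p = 0.301). OAS1 differed by -0.06 (from -0.35 to 0.23) and -0.05 (from -0.33 to 0.24). Its signal was dim in all the shRNA groups, with means from 6.89 to 6.99 against a median of 7.65 over all values. Whether the background limited the VHL difference of OAS1 and the other dimmer genes in shRNA cells was not tested. At an unadjusted p under 0.05 were 2 of 10 in PBRM1 shRNA cells, IFIT1 and OAS3 (13.5% of all genes), and 2 of 10 in KDM5C shRNA cells, IFIT1 and IFIH1 (14.9%). Limma with trend and robust moderation called 0 in both. Within chips 1 and 2 the medians were -0.0006 and -0.44 in PBRM1 shRNA cells and -0.28 and 0.01 in KDM5C shRNA cells.

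The 10 genes varied together over the arrays. After the chip term was removed, the correlation between any pair of them over the 18 arrays was from 0.578 to 0.985 (45 pairs, median 0.858), which includes the differences between groups. The residuals from group and chip were also positively correlated in all 45 pairs, with a median of 0.53, so that genes tended to be high or low on the same arrays within a group. OAS1 and OAS2 were the closest pair (r = 0.985). IFIT2 and IFIT3 were at r = 0.961. IFIT5 and OASL were the least like the rest, with r = 0.724 and r = 0.743 against the mean of the other genes, where the other 8 were between 0.906 and 0.978. Both also had the smallest ranges of group means, 0.34 for IFIT5 and 0.43 for OASL, against 1.89 for IFIT1. These correlations share the arrays and the groups and are given as a description.

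Among all other genes, the 5 with the pattern most like the mean of the 10 were MX1 (r = 0.975 over 18 arrays with the chip term removed), an antiviral GTPase, SAMD9L (0.969), an interferon-induced antiviral factor, IFI44 (0.963), an interferon-induced gene, ISG20 (0.961), an exonuclease that degrades RNA, and AOX1 (0.957), aldehyde oxidase. Without removal of the chip term AOX1 was at r = 0.842 and ranked 67, while the other 4 filled ranks 1 to 4. On chip 1 alone MX1 ranked 1, ISG20 4, SAMD9L 7, AOX1 11 and IFI44 12.

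The other genes of RNA recognition and interferon signaling were taken from lists by function. Of 27 measured genes of the RIG-I-like receptor pathway, 4 were called lower and 1 higher with PBRM1 shRNA in VHL-/- cells (background 0.89% lower and 0.921% higher), and 2 lower and 1 higher with KDM5C shRNA (0.654% and 0.807%). Their median log2 fold change was -0.11 in both. The genes called lower with PBRM1 shRNA were TRIM25 (-0.66), the ubiquitin ligase of DDX58, TMEM173 (-0.59), the STING adaptor, IRF7 (-0.62), the interferon regulatory factor that sustains interferon transcription, and TNFAIP3 (-0.82), the inhibitor A20. With KDM5C shRNA they were IRF7 (-0.59) and TNFAIP3 (-0.71). MEX3C, a ubiquitin ligase, was called higher with both (0.66 and 0.59). Over the 18 fits that left out 1 array, TRIM25 and TMEM173 were called in 15 with PBRM1 shRNA. With PBRM1 shRNA and KDM5C shRNA, IRF7 was called in 15 and 15, TNFAIP3 in 18 and 16 and MEX3C in 14 and 13. With KDM5C shRNA, IRF7 and MEX3C were not called with cyclic loess, nor was MEX3C on chip 1 alone. DHX58 (LGP2), the third receptor of the family, had log2 fold changes of -0.34 with PBRM1 shRNA (limma adjusted p = 0.0182) and -0.37 with KDM5C shRNA (adjusted p = 0.0115), under the fold threshold. TRIM25, TMEM173 and STAT2 with PBRM1 shRNA, and MEX3C, STAT2 and IFI16 with KDM5C shRNA, were not called without the chip term. MAVS, the adaptor of both sensors, had no row in the expression table under the symbols searched.

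Of 9 partners of double-stranded RNA recognition and capping, EIF2AK2 (PKR), the kinase that stops translation, was called lower with PBRM1 shRNA (-0.80, limma adjusted p = 0.000931) and with KDM5C shRNA (-0.76, adjusted p = 0.00154). The other 8 were not called. Of 13 genes of the interferon receptor and ISGF3, 3 were called lower with PBRM1 shRNA (0.89% of all genes) and 2 with KDM5C shRNA (0.654%). IRF9, the DNA-binding subunit of ISGF3, was at 9.88, 10.04 and 9.97 on the VHL-/- SCR arrays, at 8.62, 8.40 and 9.03 with PBRM1 shRNA and at 8.75, 8.63 and 9.25 with KDM5C shRNA. The others were STAT2 (-0.88 and -1.01) and, with PBRM1 shRNA, USP18 (-0.65), an inhibitor of the receptor. Of 9 interferon genes 2 were in the table and 0 were called, and of 5 genes of cytosolic DNA sensing IFI16, a DNA sensor, was called lower with both shRNAs (-1.22 and -0.92).

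**Figure D4:**
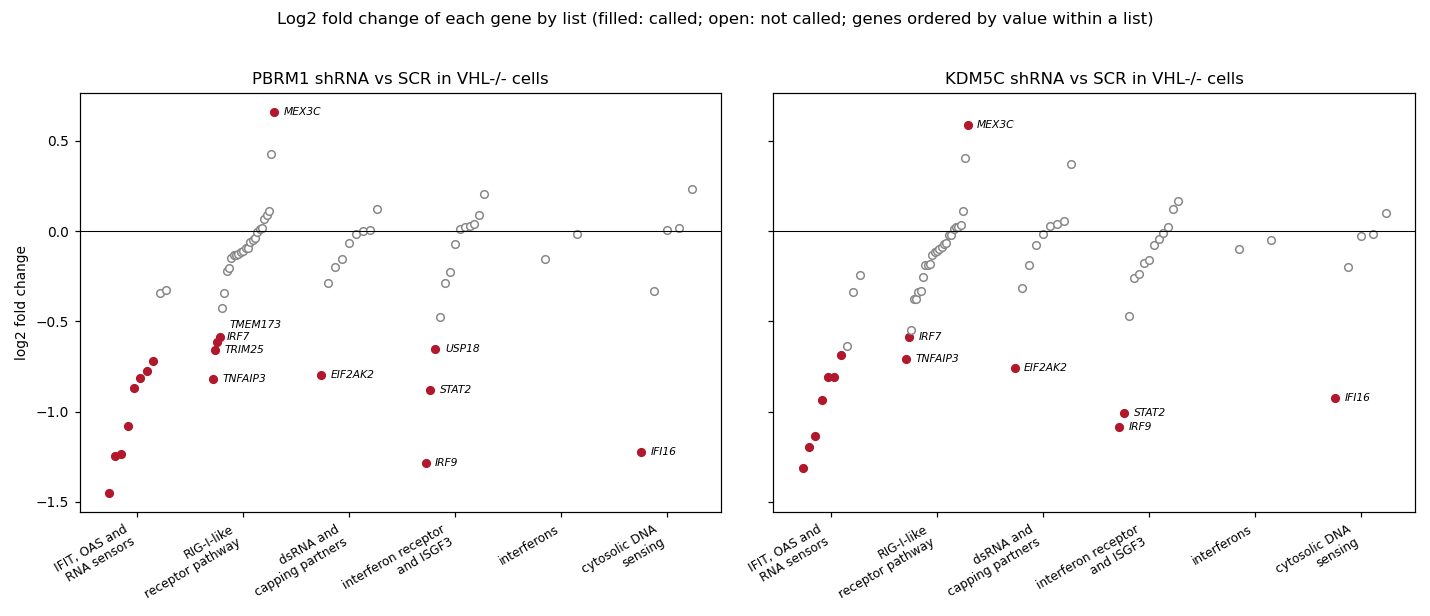
Log2 fold change of each measured gene by list (x axis) with PBRM1 shRNA (left) and KDM5C shRNA (right) in VHL-/- cells; filled red points are called, open points not called, and called genes outside the IFIT, OAS and sensor list are named. Of the RIG-I-like receptor pathway most of the 27 genes lie near 0, where 8 and 7 of the 10 IFIT, OAS and sensor genes are called lower.

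In VHL+/+ cells IRF9 was the 1 gene of these lists called lower with PBRM1 shRNA (-0.87, limma adjusted p = 0.00363; 0.304% of all genes) and with KDM5C shRNA (-0.85, adjusted p = 0.00399; 0.426%). MEX3C was called higher with PBRM1 shRNA (0.68, adjusted p = 0.0211; 0.639% of all genes were called higher), and IKBKG, the regulatory subunit of the IKK kinase, with KDM5C shRNA (0.77, adjusted p = 0.000166; 0.715% higher). Between the SCR groups only IFI16 of these lists was called, lower in VHL+/+ cells (-0.71, limma adjusted p = 0.0399; 0.685% of all genes were called lower). Between VHL+/+ and VHL-/- cells with PBRM1 shRNA 0 genes of these lists were called higher, where 0.51% of all genes were, and with KDM5C shRNA 0, where 0.327% were. Without the chip term these calls of IRF9 (limma adjusted p = 0.0982 and 0.0893) and IFI16 (0.27) were lost. On chip 1 alone the call of MEX3C was lost (0.48, limma adjusted p = 0.266). Over the 18 fits that left out 1 array, MEX3C was called in 14, IFI16 in 10, and IKBKG and IRF9 (with either shRNA) in 18.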

How the data were processed

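The deposited values are log2 intensities per gene from Illumina HumanHT-12 V4 bead chips. Per the study's methods and the submitters' processing notes, the authors read the chips in GenomeStudio, corrected the background to positive values, took log2, quantile-normalized with limma, kept probes present at a detection p of 0.05 and reduced several probes of 1 gene to their mean. Whether a batch correction entered the table is not given in the sources used here. Quantile normalization gives all arrays 1 distribution, and signal near the background compresses fold changes. Arrays have no read depth, so precision is set by how many there are.

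Comparisons were made with limma 3.58.1 in R 4.3.3 (6 group terms and the chip, 11 residual degrees of freedom). Nothing states that replicates were separate cultures, so p-values measure the spread between these samples, which may be technical. Arrays of a group correlated at 0.976 to 0.995 across genes, and none were identical. The genes and lists were chosen with earlier results of these data known. Named genes are the 10 genes, each gene of the lists called in at least 1 of 7 comparisons or needed for its role, and the 5 most alike. The fit was tested on simulated data. Sequences and positions are from RefSeq (GRCh38.p14), and the build behind the probe annotation is not given in the sources used here. Some genes of the pathway lists are not reported here.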

Additional observations from a re-analysis of the deposited data

How the results depend on the processing

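IFIT1, OAS1, OAS2, OAS3 and IFIH1 were called with both shRNAs in VHL-/- cells in all 18 fits without 1 array. Of 3190 alternative values of single genes, 2951 were counted as unchanged. They kept direction and side of the threshold or, for the untested chip 2 values, lay within the spread of the main value. The sign of a chip 2 value was checked only where the main value was called. Another 89 dropped below the threshold, 31 rose past it, and 117 were sign changes of uncalled values or untested shifts beyond the spread. The last 2 were sign changes of called values, both between the single arrays of chip 2: IFIT2 with PBRM1 shRNA in VHL-/- cells (0.0498) and OAS2 between VHL backgrounds in SCR cells (0.11). The cause was not tested. Most of the alternative values belong to results not called in the main fit, and leaving out an array of another group keeps the estimate. The count of unchanged values is thus partly fixed in advance and does not measure how stable the calls were. All 89 losses fell on results called in the main fit.

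Counts called lower over the fits without 1 array ran from 6 to 9 (PBRM1 shRNA) and 5 to 8 (KDM5C shRNA) in VHL-/- cells, 0 to 2 and 0 to 1 in VHL+/+ cells, 2 to 7 for VHL in SCR cells, 0 to 3 and 0 to 2 for the interactions, and were 0 in the other comparisons. In VHL+/+ cells with KDM5C shRNA the 1 call, IFIT1, came without VHL-/- SCR replicate 1 or 3 or VHL-/- PBRM1 shRNA replicate 1 or 3. Without the chip term the counts were 6 (PBRM1 shRNA) and 5 (KDM5C shRNA) in VHL-/- cells, 0 for PBRM1 shRNA in VHL+/+ cells and 3 for VHL in SCR cells. In VHL-/- cells OAS3 was lost with both shRNAs (limma adjusted p = 0.0906 and 0.106), IFIT2 with PBRM1 shRNA (0.0813) and IFIT3 with KDM5C shRNA (0.0617). With only the arrays of the comparison they were 2 (PBRM1 shRNA) and 1 (KDM5C shRNA) in VHL+/+ cells, and with no fold threshold also 2 and 1. At a fold of at least 2 they were 4 (PBRM1 shRNA, VHL-/-), 3 (KDM5C shRNA, VHL-/-), 0 (PBRM1 shRNA, VHL+/+) and 1 (VHL in SCR cells), fewer by construction. KDM5C shRNA in VHL+/+ cells gave 1 without the dimmest genes (a share of 0.25), with cyclic loess, with trend and robust moderation and on chip 1 alone, where VHL in KDM5C shRNA cells gave 1 and the PBRM1 shRNA interaction 3. The chip 2 arrays, 1 per group, allow values and no test.

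With the replicate number as a block in place of the chip, counts were 7 and 7 in VHL-/- cells, 1 and 0 in VHL+/+ cells, 4 for VHL in SCR cells and 0 elsewhere. Same-numbered arrays deviated together (r over 0.1) in 37 of 45 pairs as deposited and in 5 of 45 with the chip removed. As deposited, 12 of 18 arrays correlated best with their own number, and with the chip removed 0 of 18 did. The chip follows the replicate number in every group, so its removal also takes out variation shared by same-numbered arrays. The fall in these counts is thus partly fixed in advance and cannot decide whether the numbers pair the samples. The main model did not pair them.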
